A study of Mus musculus with 2 samples.

Results

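The Hox cluster genes of the mouse were examined in Gata3 ChIP-seq of TH2 cells. Members were the protein-coding genes of GENCODE M21 whose symbol is *Hoxa*, *Hoxb*, *Hoxc* or *Hoxd* followed by a number only, which gave 39 of 21938 protein-coding genes on chromosomes 1 to 19, X and Y. They lie in 4 clusters, with 11 genes in the *Hoxa* cluster on chromosome 6, 10 in the *Hoxb* cluster on chromosome 11, 9 in the *Hoxc* cluster on chromosome 15 and 9 in the *Hoxd* cluster on chromosome 2. Each gene was taken with 2 kb either side of its annotated body. Because the genes are close together and some annotated transcripts span their neighbours, the regions of 29 of the 39 genes overlapped another member, so these genes share reads and are not independent measurements. The rule itself uses gene symbols and no read counts.

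Hox genes encode homeodomain transcription factors that set the identity of body segments and limbs along the head-to-tail axis. Genes with the same number in different clusters are paralogues, and their number follows their order along the cluster: low numbers act towards the head, high numbers towards the tail. In many differentiated cells the clusters carry Polycomb-repressed chromatin over dense CpG islands, although several members, *Hoxb4* and *Hoxa9* among them, are known from blood stem and progenitor cells. Gata3 is the GATA-family zinc-finger factor that drives the TH2 programme, and it recognises the sequence WGATAR (A or T, then GATA, then A or G). Neither RNA nor histone marks were measured in these libraries, and no measurement of expression was used here, so the genes are described by their read density alone.

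The data were 2 libraries of 1 condition, splenic TH2 cells expanded in culture, labelled as replicates 1 and 2 (library 1 and library 2 below). Chromatin was precipitated with the anti-GATA3 antibody D13C9 and cut by a transposase on the beads, which also adds the sequencing adaptors. In the labels the extraction protocol speaks of ILC2 while every other field has TH2 cells, and the labels do not give the genotype or the age of the mice, nor whether the libraries came from separate cultures. No input or IgG library and no second condition was analysed here, so each gene was read against the mean of its own library. Library 1 held 40504814 reads and library 2 held 24959052 reads on these chromosomes, a mean of 2.97 and 1.83 reads per 200-bp bin, or 0.0734 RPM (read counts scaled for library size) per bin in either library. Read density below is the number of reads in a region divided by the number that this mean gives for its length, so that 1 is the library mean. For 8 genes taken as markers, densities were between 1.91 and 14.0 in library 1 and between 1.93 and 13.8 in library 2. These genes were *Gata3*, *Il4*, *Il5*, *Il13*, *Il1rl1* and *Ccr8* for TH2 cells, and *Cd3e* and *Cd4*, which other T cells share. In contrast, 3 B cell genes ranged from 1.08 to 1.44 and 3 myeloid genes from 0.716 to 1.46 over both libraries. *Stat6*, which acts upstream of *Gata3* and was not among the markers, had 1.66 and 1.55. Densities of Gata3 ChIP reads are not expression, and no genes were taken as markers of ILC2. These values therefore do not settle which cells were used.

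The Hox genes were not depleted of reads by the library mean. All 39 lay above the mean of library 1 and all 39 above the mean of library 2. The first quartile of all genes was 1.03 in either library, so most genes lay above the mean as well. After a two-sided exact Poisson test with Benjamini-Hochberg adjustment over all protein-coding genes, 35 of the 39 were above the mean in both libraries, against 66.1% of all genes, and 0 were below it in both, against 17.1% of all genes. The count of 0 follows from all 39 lying above the mean and is the same at an unadjusted p under 0.05. The test covers counting error only, and most genes of any kind passed it. The remaining 4 genes, *Hoxa5*, *Hoxb1*, *Hoxb8* and *Hoxd9*, did not pass in both libraries.

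The median density of the Hox genes was 1.69 in library 1 and 1.48 in library 2, which corresponds to 0.124 and 0.109 RPM per bin. The median of all genes was 1.39 and 1.37. Of the 39 genes, 26 were above the median of all genes in both libraries and 5 were below it in both. The share of all genes on the same side in both libraries was not counted. By the mean of the libraries, 4 of the 39 reached the 90 percentile of all genes, about the share that this percentile sets for all genes. The 63 homeobox genes outside the clusters (Pax, Lhx, Dlx, Irx, Nkx and related families) had medians of 1.77 and 1.64, above those of the Hox genes in either library. The 129 olfactory receptor genes of chromosome 9, which are used by sensory neurons of the nose, had medians of 0.773 and 0.652, and 69 of them were below the mean in both libraries. The medians of the Hox genes were thus nearer to those of the other homeobox genes than to those of the olfactory receptor genes. For scale, *Il13* and *Il4*, cytokine genes of TH2 cells, had densities of 14.0 and 6.62 in library 1 and 13.8 and 6.14 in library 2, and *Gata3* itself had 4.10 and 3.57.

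**Figure D1:**
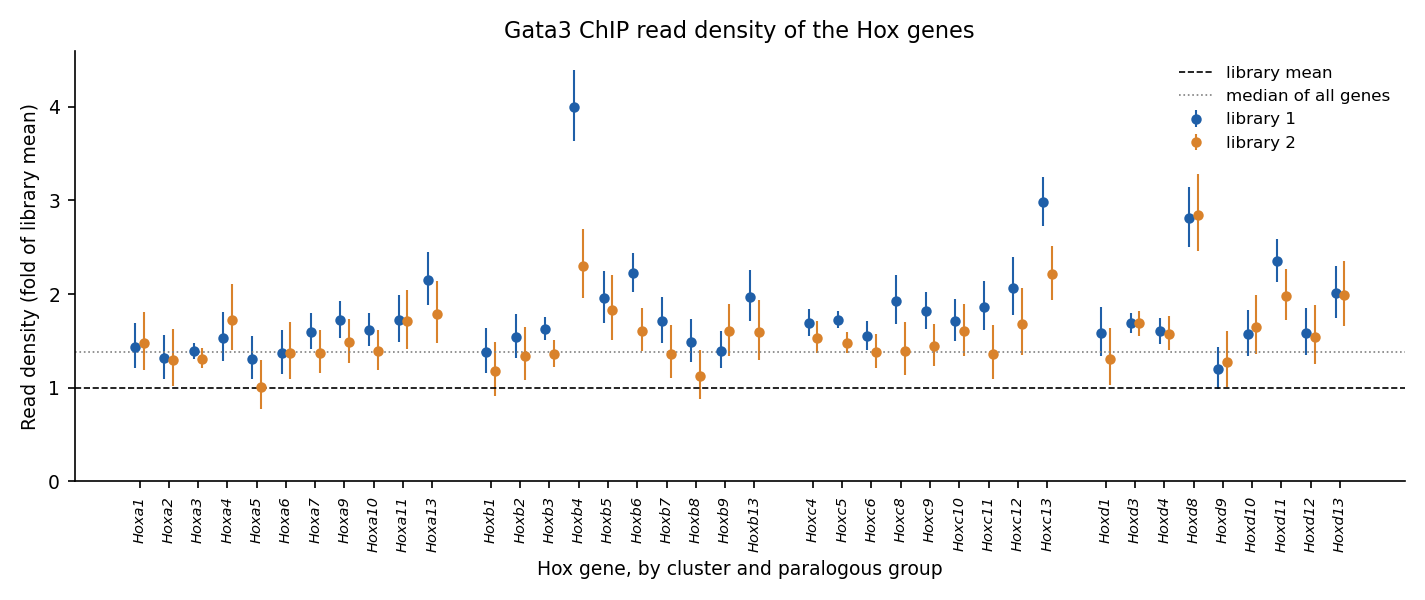
Read density (fold of the library mean, linear axis from 0) of each of the 39 Hox genes with 2 kb either side, ordered by cluster and number. Points are the 2 libraries, bars are 95% exact Poisson intervals, the dashed line is the library mean and the dotted line the median of all protein-coding genes. *Hoxb4*, *Hoxc13* and *Hoxd8* stand above the rest, and in *Hoxb4* the 2 libraries lie apart, at 4.0 and 2.3.

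The 3 highest members by the mean of the libraries were *Hoxb4*, *Hoxd8* and *Hoxc13*. *Hoxb4*, known for expanding blood stem cells when overexpressed, held 440 reads in library 1, a density of 4.0 (95% exact Poisson interval 3.64 to 4.39), and 156 reads in library 2, a density of 2.3 (1.95 to 2.69). The intervals of the libraries do not overlap. *Hoxd8* held 309 reads in library 1, a density of 2.81 (2.51 to 3.14), and 193 reads in library 2, a density of 2.85 (2.46 to 3.28), so that its values differed by less than their counting error. *Hoxc13*, which is needed for hair and nails, held 514 and 235 reads, densities of 2.98 (2.73 to 3.25) and 2.21 (1.94 to 2.51). Each of the 3 contained a peak found in both libraries.

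The 3 lowest members were *Hoxa5*, *Hoxd9* and *Hoxb1*. *Hoxa5*, a gene of lung development, had 132 reads and a density of 1.31 (1.09 to 1.55) in library 1 and 63 reads and 1.01 (0.777 to 1.29) in library 2. *Hoxd9*, which takes part in limb and spine patterning, had 114 and 75 reads, or 1.2 (0.989 to 1.44) and 1.28 (1.01 to 1.60). *Hoxb1*, which sets the identity of a hindbrain segment, had 131 and 69 reads, or 1.38 (1.15 to 1.63) and 1.18 (0.916 to 1.49). Their intervals in both libraries overlap one another, so the order among the 3 is not resolved, and all of them lie below the interval of *Hoxb4* in the same library.

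By cluster, with the genes named so far included, the ranges were as follows. In the *Hoxa* cluster the densities were between 1.31 and 2.15 in library 1 and between 1.01 and 1.79 in library 2, with the highest in *Hoxa13*. In the *Hoxb* cluster they ran from 1.38 to 4.0 and from 1.12 to 2.3. In the *Hoxc* cluster they ran from 1.55 to 2.98 and from 1.36 to 2.21. In the *Hoxd* cluster they ran from 1.2 to 2.81 and from 1.28 to 2.85. Genes above the mean in both libraries numbered 10 of 11 in *Hoxa*, 8 of 10 in *Hoxb*, 9 of 9 in *Hoxc* and 8 of 9 in *Hoxd*, against 66.1% of all genes. Above the expectation by GC content and repeats, described below, they numbered 0, 1, 1 and 3, against 35.2% of all genes. By position along the clusters, the 12 genes numbered 1 to 4 had medians of 1.56 and 1.42, the 11 numbered 5 to 8 had 1.71 and 1.38, and the 16 numbered 9 to 13 had 1.77 and 1.60. Differences between these groups were smaller than the range inside each of them. Group 13, chosen after its values were seen, was the only paralogous group of the 13 in which every gene had a density of at least 1.78 in the mean of the libraries (*Hoxa13*, *Hoxb13*, *Hoxc13* and *Hoxd13*, median 1.98).

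The *Hoxa* cluster spans 52155590 to 52260880 of chromosome 6 (GRCm38), *Hoxb* 96194316 to 96368256 of chromosome 11, *Hoxc* 102921103 to 103036852 of chromosome 15 and *Hoxd* 74668310 to 74765142 of chromosome 2. Counted as whole regions with 2 kb either side, genes and the sequence between them together, *Hoxa* had a density of 1.63 (95% exact Poisson interval 1.57 to 1.69) in library 1 and 1.48 (1.40 to 1.56) in library 2. *Hoxb* had 1.69 (1.64 to 1.74) and 1.38 (1.32 to 1.44). *Hoxc* had 1.99 (1.92 to 2.05) and 1.68 (1.61 to 1.76), and *Hoxd* had 1.77 (1.70 to 1.83) and 1.73 (1.65 to 1.82). *Hoxc* was the highest in library 1, and in library 2 *Hoxc* and *Hoxd* overlapped above the other clusters. The order of *Hoxa* and *Hoxb* was not the same in the 2 libraries.

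Sequence of the same length beside each cluster was mostly lower by the library mean. On both sides of *Hoxa* and *Hoxd* and before *Hoxb* and *Hoxc*, the flanks had densities of 1.19 to 1.40 in library 1 and 1.13 to 1.34 in library 2. The flanks after *Hoxb* and *Hoxc* reached 1.78 and 1.59 in the 2 libraries. Against bins of the same GC content and repeats, described below, each cluster was below a flank of its own in at least 1 library: *Hoxa* had 1.07 and 0.954 beside 1.13 and 1.16 before it and 1.13 and 1.04 after it, and *Hoxb* had 1.251 and 0.999 beside 1.248 and 1.03 before it and 1.497 and 1.31 after it. *Hoxc* had 1.35 and 1.117 beside 1.08 and 0.931 before it and 1.29 and 1.123 after it, and *Hoxd* had 1.18 and 1.14 beside 1.12 and 1.18 before it and 1.12 and 1.08 after it. The *Hoxb* cluster was on neither scale higher than the sequence on its right, which reaches into *Skap1*, an adaptor of T cell integrin signalling with 6 shared peaks along its length. The clusters had few empty bins. In library 1, 3.27% of the 2537 bins of the clusters held 0 reads, against 27.5% of the genome, and in library 2 it was 10.6% against 35.3%. Bins at 5 times the mean or more made up 2.68% of the clusters in library 1 and 1.34% in library 2, against 1.18% and 0.966% of the genome. The median bin held 4 reads in the clusters and 2 in the genome in library 1, and 2 and 1 in library 2, so the higher density was not held in a few sites alone. It was not even along the clusters. Between *Hoxb13* and *Hoxb9*, many 1-kb steps lay below the mean in both libraries, the lowest with 0.0673 in library 1 and 0 in library 2. *Hoxb* also had the most empty bins, 5.74% and 14.7%. Repeats covered 24.5% of the *Hoxb* cluster, against 13.4% of *Hoxa*, 16.1% of *Hoxc* and 14.7% of *Hoxd*. The part of repeats in the low steps and empty bins was not tested.

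**Figure D2:**
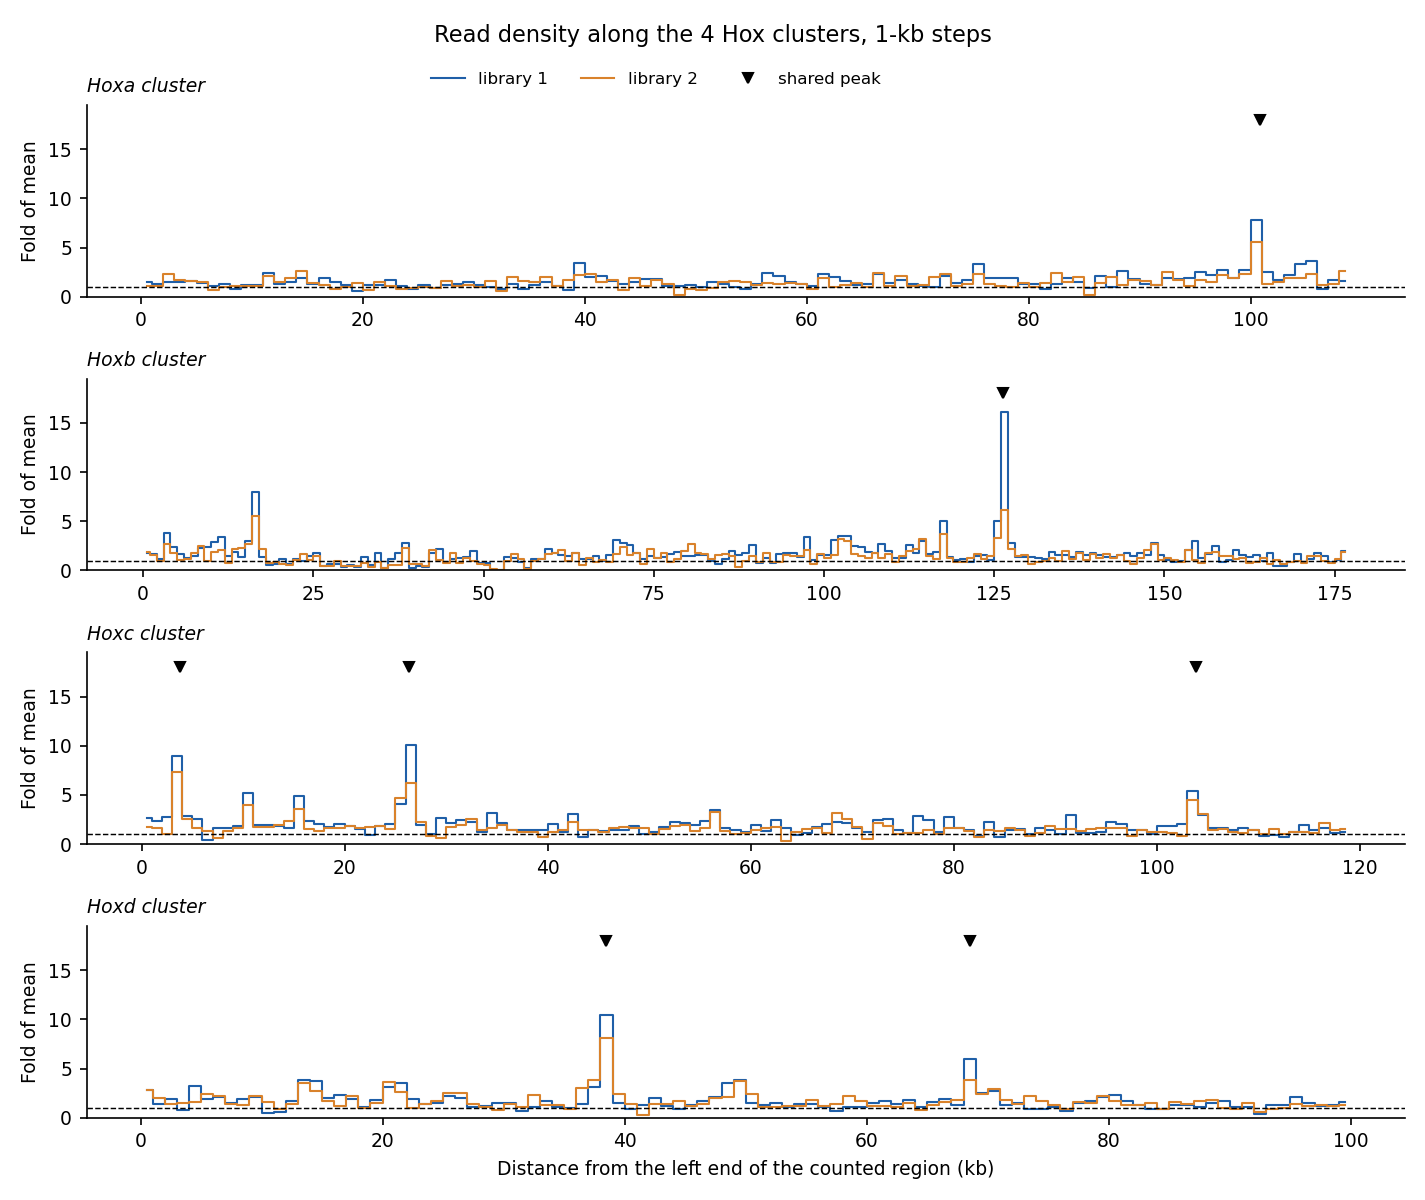
Read density in steps of 1 kb along the 4 clusters (x axis, distance in kb from the left end of the counted region on the forward strand; y axis, fold of the library mean, linear from 0). Lines are the 2 libraries, triangles the 7 shared peaks and the dashed line the library mean. Of 505 steps, 6 reached 5 times the mean in both libraries, and 5 of these hold a shared peak.

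Peaks were then sought as 200-bp windows with more reads than the library mean and the surrounding 5 and 10 kb (exact Poisson test, one-sided, with a Benjamini-Hochberg q under 0.01 over all windows), and were called shared where those of the 2 libraries overlapped. Of the 23806 shared peaks of the genome, 7 lay in the Hox clusters, with 1 in *Hoxa*, 1 in *Hoxb*, 3 in *Hoxc* and 2 in *Hoxd*. Library 1 by itself had 22 peaks there, of 71726 in the genome, at 13 of the Hox genes against 60.7% of all protein-coding genes. Library 2 had 7 of 28204, all of which were shared, at 5 of the Hox genes against 37.9% of all genes. With their 2 kb either side, 5 of the 39 Hox genes (*Hoxb4*, *Hoxc4*, *Hoxc13*, *Hoxd3* and *Hoxd8*) held the summit of a shared peak, against 35% of all protein-coding genes, 13 of the 63 other homeobox genes and 1 of the 129 olfactory receptor genes. Genes differ in length, and the Hox genes were not compared with genes of their own length. The other 2 peaks were nearer to no member than 2 kb.

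The heights of the 7 peaks, by the lower library, fell between the 36.5 and 70.7 percentiles of all shared peaks. Over the local background they reached 3.72 to 6.70-fold in library 1 and 3.73 to 4.70-fold in library 2, so that 0 of them passed 5-fold in both libraries and 0 passed a q of 1e-10 in both. Over the genome the 23806 shared peaks fell to 6338 when called at 5-fold and to 5154 at that q. Together they held few of the reads. Bins in shared peaks gave 3.03% of the reads of the *Hoxa* cluster in library 1 and 2.64% in library 2, 5.75% and 2.72% in *Hoxb*, 8.36% and 7.05% in *Hoxc*, and 8.06% and 6.32% in *Hoxd*. Without these bins the clusters had densities of 1.59, 1.60, 1.84 and 1.65 in library 1 and 1.45, 1.35, 1.59 and 1.65 in library 2, still above the mean.

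The tallest site in library 1 was at the start of *Hoxb4*. Its summit in library 1, at position 96318601 of chromosome 11, lay 334 bp after the annotated start, in the 5′ untranslated region. The window there held 105 reads in library 1 (2.59 RPM). In library 2 the summit was at 96318701, and the window there held 25 reads (1.0 RPM). For all 7 peaks, the positions given are summits of library 1, and reads were counted at the summit of each library. The tallest site in library 2 was at the start of *Hoxd8*, with 56 reads in library 1 (1.38 RPM) and 28 reads in library 2 (1.12 RPM). Its summit at position 74704801 of chromosome 2 lay 186 bp after the start of the annotated gene, in an intron of *Hoxd8* and of the antisense RNA *Hoxd3os1*, so a peak there belongs to no single transcript. These were the only 2 of the 7 within 1 kb of the start of a member gene. The 250 bases before the start of both genes are shown because they border these peaks, as given by RefSeq on GRCm38.p6, forward strand, with any WGATAR or its reverse complement in capitals.
*Hoxb4*, chr11:96318017-96318266: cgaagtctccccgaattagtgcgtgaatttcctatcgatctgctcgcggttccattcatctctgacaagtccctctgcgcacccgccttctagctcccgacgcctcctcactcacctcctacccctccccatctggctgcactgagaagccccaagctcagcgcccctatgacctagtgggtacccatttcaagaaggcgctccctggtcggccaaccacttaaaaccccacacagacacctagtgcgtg
*Hoxd8*, chr2:74704365-74704614: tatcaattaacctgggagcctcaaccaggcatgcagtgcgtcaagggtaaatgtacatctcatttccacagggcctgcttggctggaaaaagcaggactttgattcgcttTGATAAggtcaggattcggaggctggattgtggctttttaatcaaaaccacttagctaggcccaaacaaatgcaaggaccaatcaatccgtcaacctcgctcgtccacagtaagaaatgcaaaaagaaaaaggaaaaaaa

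The *Hoxb4* stretch held 14 CG dinucleotides, 58.0% GC and 0 WGATAR, and the window of 100 bp either side of the *Hoxb4* summit held 0 WGATAR as well. The *Hoxd8* stretch held 6 CG dinucleotides, 44.4% GC and 1 WGATAR, whereas the 200 bp around the *Hoxd8* summit held 27 CG dinucleotides, 77.0% GC and 1 WGATAR, its centre 93 bp from the summit. Of the 24 RefSeq promoters found for 22 Hox genes (250 bases before to 50 after the start), 7 held a WGATAR (29.2%), against 29.8% of 32851 promoters of the genome. In this promoter window *Hoxb4* had 36 and 14 reads and *Hoxd8* 35 and 13 reads, while the median Hox promoter had densities of 1.35 and 1.46, the same whole-read values as the median of all promoters.

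In the *Hoxc* cluster the 3 peaks were distal to the gene starts. The first, in an intron of *Hoxc13* with its summit at position 102922851 of chromosome 15, held 54 reads in library 1 (1.33 RPM) and 23 in library 2 (0.922 RPM). The second, at position 102945401, held 67 reads (1.65 RPM) and 26 reads (1.04 RPM) and lay in an exon of *Hotair*, a long non-coding RNA gene between *Hoxc12* and *Hoxc11*, 8644 bp after the start of *Hoxc12*. The third, at position 103022951 in an intron of *Hoxc4*, held 38 reads (0.938 RPM) and 17 reads (0.681 RPM). In the *Hoxd* cluster a second peak, at position 74734851 of chromosome 2 in an intron of *Hoxd3*, held 32 reads (0.790 RPM) and 17 reads (0.681 RPM). The only peak of the *Hoxa* cluster, at position 52254401 of chromosome 6, was intergenic, 6479 bp downstream of the start of *Hoxa13*, and held 38 reads (0.938 RPM) and 19 reads (0.761 RPM). All 7 sites had fewer RPM in library 2, without a share of all shared peaks to set beside this count. By a two-sided exact binomial test of their reads, unadjusted, only *Hoxb4* differed (p = 5.3e-06), and the others had p from 0.052 to 0.74. This test compares windows at the summit of each library, which are not the same window. *Hoxc4*, which helps to induce antibody gene mutation in B cells, had a density of 1.69 (1.55 to 1.84) over its whole region in library 1 and 1.53 (1.37 to 1.71) in library 2, and *Hoxd3*, which patterns the neck vertebrae, had 1.69 (1.59 to 1.80) and 1.69 (1.56 to 1.82), against medians of 1.69 and 1.48 over the Hox genes.

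The tallest single 200-bp bin of each cluster, by the lower library, lay inside a shared peak. In *Hoxa* it held 33 reads in library 1 and 16 in library 2, which is 11.1 and 8.74 times the library mean. In *Hoxb*, at *Hoxb4*, it held 98 and 25 reads, 33.0 and 13.7 times the mean. In *Hoxc*, at *Hotair*, it held 57 and 24 reads, 19.2 and 13.1 times the mean, and in *Hoxd*, at *Hoxd8*, 55 and 28 reads, 18.5 and 15.3 times the mean. The clusters were closer to each other in library 2 than in library 1, where the *Hoxb4* bin stood apart.

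A WGATAR lay within 100 bp of the summit of library 1 in 6 of the 7 peaks, *Hoxb4* being the exception. The share among all shared peaks was 70.9%, and 23.0% of 200-bp windows of the clusters held one. The motif TGANTCA, which AP-1 factors bind, and the CTCF core sequence were found at 0 of the 7 summits, against 16.8% and 0.596% of all shared peaks. The 200 bp around the summits of the 3 *Hoxc* peaks and the *Hoxa* peak, all outside untranslated regions, are shown with their matches, on the forward strand of GRCm38 where capitals mark WGATAR or its reverse complement.
*Hoxc13* intron, chr15:102922751-102922950: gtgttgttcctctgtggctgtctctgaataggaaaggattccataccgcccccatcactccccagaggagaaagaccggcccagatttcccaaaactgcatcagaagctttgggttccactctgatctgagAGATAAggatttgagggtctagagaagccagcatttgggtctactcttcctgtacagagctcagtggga
*Hotair* exon, chr15:102945301-102945500: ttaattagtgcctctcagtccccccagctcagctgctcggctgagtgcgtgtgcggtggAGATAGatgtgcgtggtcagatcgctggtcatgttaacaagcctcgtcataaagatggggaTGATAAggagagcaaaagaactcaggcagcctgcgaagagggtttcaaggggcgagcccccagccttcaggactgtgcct
*Hoxc4* intron, chr15:103022851-103023050: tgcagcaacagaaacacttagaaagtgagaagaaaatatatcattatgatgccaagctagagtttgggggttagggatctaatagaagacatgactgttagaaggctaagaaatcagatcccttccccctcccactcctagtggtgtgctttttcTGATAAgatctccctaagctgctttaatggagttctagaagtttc
Between *Hoxa11* and *Hoxa13*, chr6:52254301-52254500: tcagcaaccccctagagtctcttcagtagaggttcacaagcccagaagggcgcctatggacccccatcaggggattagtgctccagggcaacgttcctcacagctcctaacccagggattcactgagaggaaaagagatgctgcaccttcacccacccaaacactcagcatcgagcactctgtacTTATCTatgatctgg

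The match was AGATAA with its centre 34 bp from the summit in *Hoxc13*, AGATAG and TGATAA at distances of 38 and 23 bp in *Hotair*, TGATAA at 58 bp in *Hoxc4* and TTATCT, the reverse complement of AGATAA, at 88 bp in the *Hoxa* peak. The summits of the 2 libraries were not at the same base, and around the summits of library 2 the sites in *Hoxc13* and *Hotair* held 0 WGATAR. A match is a description of the sequence and does not show that Gata3 was bound to it.

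Most WGATAR sequences of the clusters lay outside peaks. The clusters held 748 of them, 1.47 per kb against 2.65 per kb of the genome. Of these, 7 lay within 100 bp of a shared summit, which is 0.936% (95% exact binomial interval 0.377 to 1.92%), and over the genome it was 0.404% (0.399 to 0.409%). The interval of the clusters includes the share of the genome, so a difference over all 4 clusters was not detectable with 748 occurrences around these summits, which are those of library 1 in each shared peak. With the peaks of 1 library alone the share was 2.27% (1.33 to 3.61%) in library 1, above the 1.15% of the genome, and 0.668% (0.217 to 1.55%) in library 2, whose interval includes the 0.494% of the genome. In the *Hoxc* cluster it was 4 of 197, or 2.03% (0.556 to 5.12%), around the shared summits, and this interval lay above the 0.404% of the genome. Neither library alone gave this for *Hoxc*: the share was 6 of 197, or 3.05% (1.13 to 6.51%), with the peaks of library 1 and 2 of 197, or 1.02% (0.123 to 3.62%), with those of library 2, and both intervals include the share of the genome in that library. With the peaks of library 1 alone it was *Hoxd*, with 6 of 146 or 4.11% (1.52 to 8.73%), whose interval lay above the genome. Around the shared summits the share was 0 of 245 in *Hoxb* (up to 1.49%), 1 of 160 in *Hoxa* (0.0158 to 3.43%) and 2 of 146 in *Hoxd* (0.166 to 4.86%). These intervals include the 0.404% of the genome. The 4 in *Hoxc* belong to 3 peaks, and intervals treat occurrences as independent. All these shares count WGATAR in repeats too, which cover 36.4% of the genome and 18.2% of the clusters. Bins in the highest of 5 repeat classes had densities of 0.109 and 0.110, so few summits can be called there. The shares were not compared in sequence of like repeat content.

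The clusters differ from the rest of the genome in their sequence, and read density followed sequence in both libraries. GC content was 49.3% in the clusters and 41.7% in the genome, soft-masked repeats covered 18.2% and 36.4%, and CpG-rich bins (GC of at least 50% and an observed over expected CpG ratio of at least 0.6) made up 14.1% and 0.949%. Across the genome, bins in the lowest of 5 repeat classes had densities of 1.45 and 1.46, and those in the highest 0.109 and 0.110. Bins of 30 to 40% GC had 0.874 and 0.838 over the genome, and bins of 60 to 70% GC had 1.39 and 1.41. Within each of these GC classes the clusters were higher than the genome, with 1.47 and 1.27 in the lower class and 1.93 and 1.69 in the upper, except in the 57 bins of 70 to 80% GC, where they had 2.04 and 1.57 against 2.03 and 2.05.

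**Figure D3:**
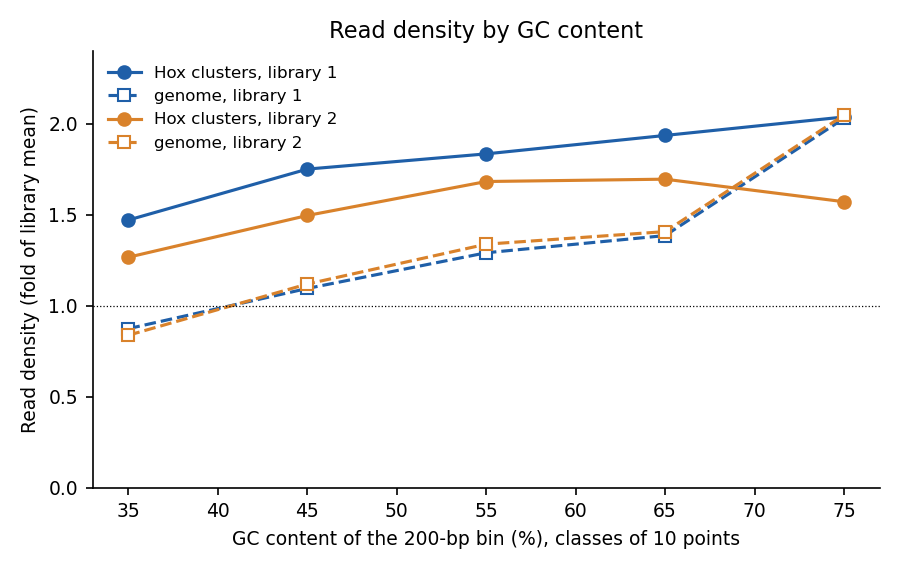
Read density (fold of the library mean, linear axis from 0) of 200-bp bins by their GC content in classes of 10 points, for the Hox clusters (filled circles) and the genome (open squares) in the 2 libraries. The clusters lie above the genome up to 70% GC, and in the class of 70 to 80% library 2 has 1.57 in the clusters and 2.05 in the genome.

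The expectation was therefore also taken from all bins of the genome with the same GC content and the same repeat class, a setting chosen after the data had been seen. The median density of the Hox genes then became 1.11 in library 1 and 0.954 in library 2, beside 1.07 and 1.05 for all genes, 1.15 and 1.07 for the other homeobox genes and 0.785 and 0.698 for the olfactory receptor genes. Under this expectation 5 of the 39 Hox genes were above it in both libraries (exact Poisson test, adjusted over all genes), against 35.2% of all genes, and 3 were below it, against 20.2%. Whether a gene passes depends on the number of reads in its region as well as on its density. Genes of like length were not compared, so these shares do not show a lack of reads in the Hox genes. The 5 were *Hoxb4*, *Hoxc13*, *Hoxd8*, *Hoxd11* and *Hoxd13*, and the 3 were *Hoxa3*, *Hoxa5* and *Hoxd9*. *Hoxd11* and *Hoxd13*, which shape the distal limb, had values of 1.60 and 1.37 in library 1 and 1.34 and 1.33 in library 2 without holding a shared peak. The count of genes above the mean thus fell from 35 to 5. With GC content alone it was 19, against 53.4% of all genes.

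**Figure D4:**
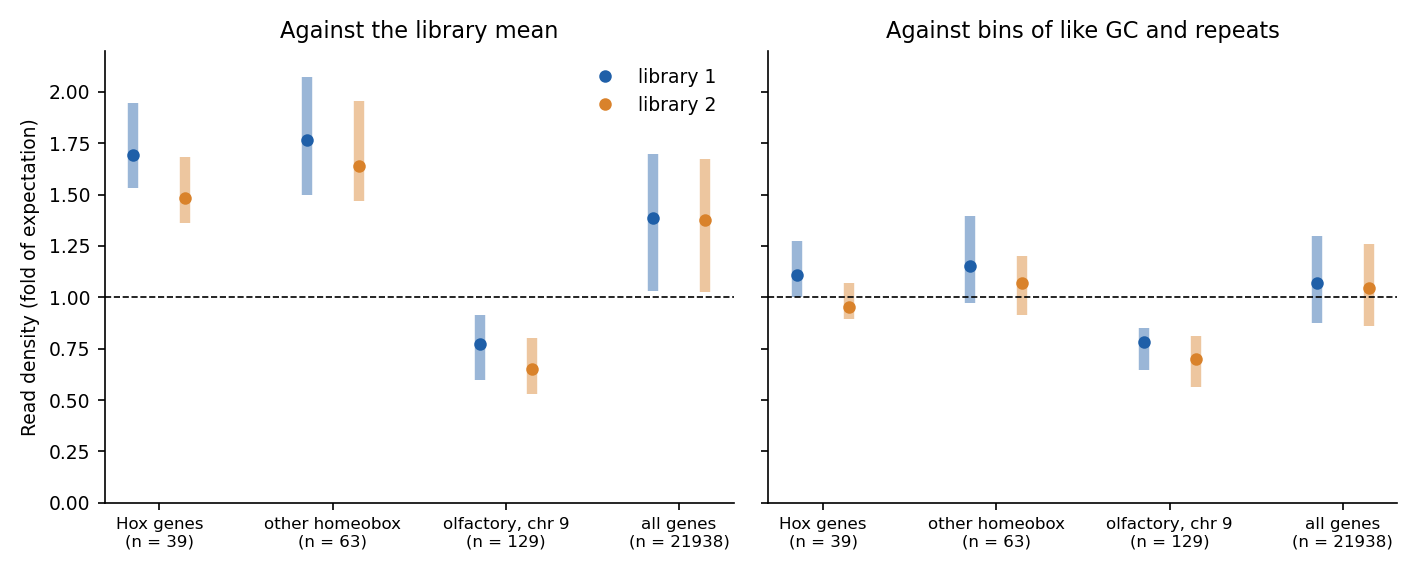
Median (points) and interquartile range (bars) of read density in the 39 Hox genes, 63 other homeobox genes, 129 olfactory receptor genes of chromosome 9 and all 21938 protein-coding genes, for the 2 libraries (linear axis from 0, fold of the expectation). On the left the expectation is the library mean, and on the right it is that of bins with the same GC content and repeat class. There the Hox genes have 1.11 and 0.954 beside 1.07 and 1.05 for all genes, lower than all genes in library 2. The olfactory receptor genes stay below 1.

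The CpG-rich bins of the clusters did not stand out from the other bins of the clusters. The 358 such bins had densities of 1.90 in library 1 and 1.62 in library 2, and the remaining bins of the clusters had 1.74 and 1.53. Over the genome CpG-rich bins had 1.57 and 1.60, against 0.995 and 0.994 elsewhere. Bins at gene starts and away from them were then taken apart. Within 1 kb of a start of any protein-coding gene, CpG-rich bins had densities of 2.49 and 2.57, whereas the 146 such bins at starts in the Hox clusters had 1.90 and 1.65, and away from starts the 212 bins of the clusters had 1.90 and 1.60 against 1.08 and 1.07 for the genome. Among CpG-rich bins, those at annotated starts in the clusters were thus lower than those at starts at large, in both libraries. Those away from annotated starts were higher in the clusters than in the genome, in both libraries. Only the start of each annotated gene was used, and starts of other genes inside the clusters, such as *Gm28230*, were counted too. Other promoters, such as the RefSeq promoter of *Hoxc4*, could therefore fall among the bins away from starts. Against bins with the same GC content and repeats, the CpG-rich bins of the clusters had 1.07 in library 1 and 0.887 in library 2.

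Density was also taken by distance from annotated starts. At the start itself the mean over all genes was 2.12 in library 1 and 2.22 in library 2, falling to 1.2 and 1.17 at 5 kb upstream. The mean over the 39 Hox genes was 1.94 and 1.46 at the start and it was uneven on both sides. It was 2.76 and 1.99 at 200 bp after the start and 2.92 and 2.14 at 400 bp, in windows that reach into the *Hoxb4* and *Hoxd8* peaks. By the median, Hox genes had 1.35 at the start in library 1, the same whole-read value as all genes, and 1.09 in library 2, against 1.64 for all genes. Annotated starts of several Hox genes are those of long alternative transcripts, and starts within a cluster are close enough to fall into one another's flanks.

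**Figure D5:**
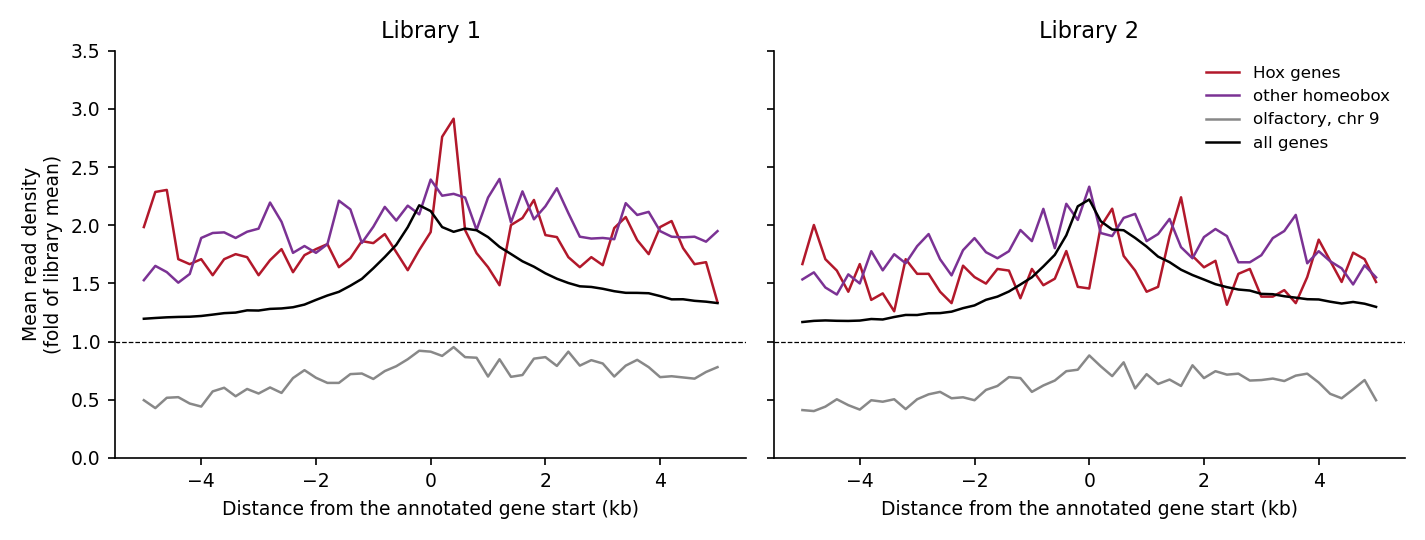
Mean read density (fold of the library mean, linear axis from 0) in 200-bp windows from 5 kb before to 5 kb after the annotated start, in the direction of transcription, for Hox genes, other homeobox genes, olfactory receptor genes of chromosome 9 and all genes, with 1 panel per library. All genes rise to 2.12 and 2.22 at the start, whereas the Hox line is uneven and has 1.94 and 1.46 there.

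The Hox genes were lower in library 2 than in library 1 in 32 of 39 cases, though 29 of the 39 share reads with another member. The share of all genes that were lower is not given, but their median ratio also lay below 0. The median log2 ratio of library 2 to library 1 was −0.21 for the Hox genes, −0.02 for all genes, −0.10 for the other homeobox genes and −0.22 for the olfactory receptor genes. By a two-sided exact binomial test adjusted over all protein-coding genes, 5 of the 39 differed between the libraries, against 15.6% of all genes. They were *Hoxb4* (log2 ratio −0.80, adjusted p = 4.8e-08 by the exact test), *Hoxc13* (−0.43, adjusted p = 0.00196, exact), *Hoxb6* (−0.47, adjusted p = 0.00205, exact), *Hoxc5* (−0.22, adjusted p = 0.00942, exact) and *Hoxb3* (−0.26, adjusted p = 0.0440, exact), all lower in library 2. The annotated body of *Hoxc5* contains other *Hoxc* genes, so its reads are not its own. This test compares 2 libraries and not conditions. The read names in the deposited lines begin with a different instrument identifier in each library, and the libraries differ in depth, and the part of either in these differences cannot be told apart from other differences between them. Across the 39 genes the densities of the libraries had a Pearson r of 0.796 and a Spearman rho of 0.725, and across all genes 0.957 and 0.936, as a description over genes that share libraries and, within clusters, reads.

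Beside the clusters, the 3 nearest protein-coding genes on each side, 24 in all, had a median density of 1.54 in library 1 and 1.43 in library 2, below the 1.69 and 1.48 of the Hox genes. Against bins of the same GC content and repeats the order turned, with medians of 1.29 and 1.15 for these neighbours and 1.11 and 0.954 for the Hox genes. The range of the neighbours by the library mean was 1.0 to 2.97 and 0.770 to 3.10. Of these neighbours, 20 were above the mean in both libraries and 0 below it, against 66.1% and 17.1% of all genes. A shared peak was held by 11, against 35% of all genes. *Calcoco1*, before the *Hoxc* cluster, was the highest with 2.97 and 3.10, similar to *Hoxd8*. The homeobox genes *Evx1* and *Evx2*, which adjoin *Hoxa13* and *Hoxd13*, had 2.31 and 1.97, and 2.08 and 1.59. *Calcoco2*, before the *Hoxb* cluster, was the lowest with 1.0 and 0.770. *Cbx5*, which encodes a heterochromatin protein and lies after the *Hoxc* cluster, had 1.71 and 1.52 with 2 shared peaks.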

How the data were processed

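Gata3 ChIP-seq was measured in 2 libraries of TH2 cells. Alignment by the authors was to GRCm38, with Bowtie2 2.3.5.1, of single reads, and those with a unique position were kept. MACS2 2.1.2 is named in the submitters' processing notes with no role. The deposited files give 1 line per read with its position, strand and a mapping quality score, and the score was used in 1 alternative only. Each read was placed 100 bp downstream of its 5′ end and counted in a 200-bp bin. Removal of reads without a unique position can lower the count in repeats, and removal of duplicates (0 deposited reads share a 5′ end and strand in either library) limits the height of a peak. Members, gene lists and tests were chosen with earlier results of these data known. Values are given for the 3 highest and 3 lowest members, members with a shared peak and the tallest bin of each cluster, and other members and the 3 neighbouring genes each side mostly in ranges.

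Genes were those of GENCODE M21. The 95% exact intervals reflect counting error alone, as do all p-values, since they are computed from counts within a library or between the 2 libraries. Nothing says that the libraries came from separate cultures. Peaks within 100 bp were joined. The tests were checked on data simulated with counting error alone, which leaves out the dependence of reads on GC content and repeats. Alternatives were 2 other peak thresholds, other window widths, paddings, expectations, shifts, mapping qualities and each library alone. Python 3.11.15, NumPy 2.4.6, SciPy 1.17.1, pandas 2.3.3 and Matplotlib 3.10.9 were used.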

Additional observations from a re-analysis of the deposited data

How the results depend on the processing

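Against the mean over bases other than N, the *Hoxd* density was 1.70, the only value that this setting moved by more than the spread between the libraries. With the expectation by GC content the densities of *Hoxa*, *Hoxb*, *Hoxc* and *Hoxd* were 1.27, 1.27, 1.52 and 1.44, the median of the Hox genes 1.28 and the CpG-rich bins 1.17. With GC content and repeats, chosen after seeing the data, they were 1.01, 1.13, 1.23, 1.16, 1.03 and 0.976, so that the CpG-rich bins turned from above to below the expectation in the mean of the libraries (1.07 in library 1 and 0.887 in library 2). With bins that held a read they were 1.2, 1.21, 1.41, 1.35, 1.22 and 1.35. Hox genes above the expectation numbered 19 by GC content, where 53.4% of all genes were above it, and 5 by GC content and repeats, where 35.2% were, with 3 below it under the latter, where 20.2% were. By construction the expectations by GC content, and by GC content and repeats, come from genome bins alike in these properties alone, at gene starts or elsewhere.

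With the q lowered to 1e-10, or with 5-fold over the local background required in each library, 0 Hox genes held a shared peak, against 11.4% and 13.3% of all genes, and 0 shared peaks lay in the clusters, while those of the genome fell from 23806 to 5154 and 6338. Leaving out 1 library gave 5 to 13 Hox genes with a peak (37.9 and 60.7% of all genes), 7 to 22 peaks, 0.668 to 2.27% of WGATAR near a summit (0.494 and 1.15% over the genome), 35 to 38 genes above the mean (68.5 and 70.9% of all genes), and densities of 1.48 to 1.63 for *Hoxa*, 1.38 to 1.69 for *Hoxb*, 1.68 to 1.99 for *Hoxc*, 1.73 to 1.77 for *Hoxd*, 1.48 to 1.69 for the median and 1.62 to 1.90 for CpG-rich bins. The higher peak counts, 13 and 22, are those of library 1 alone, without library 2. Genes that differed between the libraries fell from 5 to 1 at an adjusted p of 0.001 (exact test, *Hoxb4*; 6.21% of all genes) and to 3 without padding (13.5%), from 15.6%. The causes of these changes, other than those given by construction, were not tested. No paired analysis was possible because there was 1 condition. Depth limits what can be said of single genes: at 1.83 reads per bin in library 2, a site of a few reads could not be seen.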
